A study of Mus musculus with 24 samples.

Results

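Imprinted growth genes were taken as 7 genes chosen by name, namely H19, Igf2, Mest, Peg3, Grb10, Plagl1 and Cdkn1c, of 16730 genes in a count table of mouse epididymal white adipose tissue (eWAT). Of these, 6 were found by gene symbol, and H19, which carries no symbol in the deposited annotation, was found by its gene ID. All 7 passed the filter on low counts, as did 15020 genes in total. The tissue came from male littermate mice on a C57BL/6J background, and 1 library was made per mouse. Control mice, labelled wild-type, carried Lama4 alleles with an early exon flanked by loxP sites (Lama4 fl/fl), and Lama4 AKO mice carried the same alleles together with a Cre driven by the adiponectin promoter, which acts in adipocytes and leaves Lama4 in the other cells of the tissue. LAMA4 is laminin α4, a chain of the basement membrane laminins. Each genotype was fed breeder chow or a high-fat diet (HFD) with 45% of its energy as fat for 20 weeks, with 6 mice in each of the 4 groups, and the study compared the diets within each genotype and the genotypes within each diet. HFD was given from 6 weeks of age to 26 weeks and chow from weaning to 24 weeks in the cohorts described, so diet and a small difference in age cannot be told apart.

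Genomic imprinting silences the copy of a gene that came from one parent, so that only the maternal or only the paternal copy is read. Igf2, Mest, Peg3 and Plagl1 are read from the paternal copy and H19 and Cdkn1c from the maternal copy, while Grb10 is maternal in most tissues outside the nervous system. Paternally read members tend to promote growth of the embryo and the maternally read members tend to restrain it, and in the mouse most of them are turned down together in many organs after birth. In adult fat, Mest is known for varying widely between genetically alike mice and for following the growth of the fat depot.

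The 7 genes lie at 5 places in the mouse genome (GRCm38). The distal end of chromosome 7 holds H19 (ENSMUSG00000000031, chr7:142575529-142578143, minus strand), Igf2 (ENSMUSG00000048583, chr7:142650766-142666816, minus strand) and Cdkn1c (ENSMUSG00000037664, chr7:143458339-143461050, minus strand). H19 and Igf2 are 72622 bases apart and share an imprinting control region, and Cdkn1c lies 791522 bases further on, in a cluster with its own control region. Peg3 (ENSMUSG00000002265, chr7:6703892-6730431, minus strand) lies at the other end of the same chromosome. Mest (ENSMUSG00000051855, chr6:30723547-30748465, plus strand), Plagl1 (ENSMUSG00000019817, chr10:13060504-13131694, plus strand) and Grb10 (ENSMUSG00000020176, chr11:11930508-12038683, minus strand) each lie in a cluster of their own. H19 is annotated as a long noncoding RNA and the other 6 genes as protein coding.

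The libraries were made by QuantSeq, which reads a tag near the 3′ end of each polyadenylated RNA, so a value is a count scaled to a common library size (CPM) and is not divided by transcript length. The 3′ end of Mest overlaps the 3′ end of Copg2 on the opposite strand by 912 bases, and Copg2 has a count of its own in the table. Igf2 overlaps Gm49394 on the same strand by 16048 bases, and Gm49394 has no count of its own in the table. How reads that fit both Igf2 and Gm49394 were counted is not given in the sources used here, so the Igf2 count could hold or lack such reads. Nor is it given whether the counting used strand, so the Mest count could hold reads of Copg2. The count of Copg2 could likewise hold reads of Mest, which had 113031 counts over all libraries against 10546 for Copg2.

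Among the 7 members, Plagl1 encodes a zinc finger transcription factor known to bind GC-rich sites and to act on other imprinted genes, and the levels of Grb10, Peg3 and Mest were those closest to the level of Plagl1 across these mice. The 250 bases upstream of RefSeq start sites of these 4 genes are shown, with both windows of Grb10 and 1 of the 3 of Mest (RefSeq, GRCm38.p6, 5′ to 3′ on the strand of the gene), in lower case with each match to the letters GGGGCC or their reverse complement GGCCCC in capitals.
Mest, chr6:30737800-30738049, plus strand: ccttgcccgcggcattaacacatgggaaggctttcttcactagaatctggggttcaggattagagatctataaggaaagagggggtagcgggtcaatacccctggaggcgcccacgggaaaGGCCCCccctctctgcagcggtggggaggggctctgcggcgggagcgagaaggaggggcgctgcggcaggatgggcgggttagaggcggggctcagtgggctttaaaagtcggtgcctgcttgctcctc
Peg3, chr7:6730420-6730669, minus strand: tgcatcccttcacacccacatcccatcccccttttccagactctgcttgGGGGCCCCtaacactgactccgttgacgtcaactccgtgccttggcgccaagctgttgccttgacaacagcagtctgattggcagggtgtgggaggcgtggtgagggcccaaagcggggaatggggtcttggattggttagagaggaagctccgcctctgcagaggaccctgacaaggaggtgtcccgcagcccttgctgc
Plagl1, chr10:13090582-13090831, plus strand: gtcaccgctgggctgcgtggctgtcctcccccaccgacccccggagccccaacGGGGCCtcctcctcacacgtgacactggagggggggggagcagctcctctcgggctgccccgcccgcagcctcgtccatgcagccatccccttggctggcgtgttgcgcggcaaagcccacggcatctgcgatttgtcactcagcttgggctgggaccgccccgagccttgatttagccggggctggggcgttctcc
Grb10, chr11:12027972-12028221, minus strand: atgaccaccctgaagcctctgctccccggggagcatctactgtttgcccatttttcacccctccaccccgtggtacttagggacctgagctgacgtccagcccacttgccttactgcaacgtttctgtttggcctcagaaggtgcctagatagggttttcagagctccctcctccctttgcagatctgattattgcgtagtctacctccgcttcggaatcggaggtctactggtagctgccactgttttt
Grb10, chr11:12037421-12037670, minus strand: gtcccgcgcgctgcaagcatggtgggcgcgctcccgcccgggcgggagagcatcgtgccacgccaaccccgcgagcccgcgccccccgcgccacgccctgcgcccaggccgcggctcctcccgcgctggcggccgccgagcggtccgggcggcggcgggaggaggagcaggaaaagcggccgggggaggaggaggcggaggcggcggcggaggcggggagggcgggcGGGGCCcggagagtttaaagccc
The RefSeq table gave 11 such windows for 5 members and none for H19 and Cdkn1c. GGGGCC on either strand was present in 8 of the 11 windows and in at least 1 window of each of the 5 members, and in 21.97% of 32851 upstream windows of all genes. It was absent from 1 of the 2 windows of Grb10, the one printed without capitals, and from 2 of the 4 windows of Igf2. The printed windows of Mest, Peg3 and Plagl1 held 14, 8 and 19 CpG dinucleotides, and those of Grb10 held 8 and 40 in the order printed, against a median of 6 over all windows. Windows of Mest starting at 30737800 and 30737803 overlap and hold the same match, so the count of 8 holds that site more than once. The share of all windows is counted per window, not per gene, and was not matched for content of G and C, which reached 81.2% in a window of Grb10. These matches describe letters only, and no enrichment was tested.

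H19 is also the host of a microRNA, miR-675, which was not measured here. Its mature arms (RefSeq, minus strand of chromosome 7) are shown with the seed, bases 2 to 8, in capitals.
mmu-miR-675-5p: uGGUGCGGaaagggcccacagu
mmu-miR-675-3p: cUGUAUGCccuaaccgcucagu

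Library totals ranged from 5579590 to 18764516 counts. At this depth H19 had 3 to 164 counts per library and Igf2 21 to 148, so single values of these 2 genes are coarse, whereas Mest had 1351 to 10010 counts. Lama4 itself had a mean of 6.45 ± 0.76 log2 CPM (SD, n = 6) in chow-fed Lama4 fl/fl mice and 6.69 ± 0.40 in chow-fed Lama4 AKO mice, and on HFD it was 6.19 ± 0.82 and 5.61 ± 0.47 in the same order. The tags lie near the 3′ end and the deleted exon is an early one, so the tags need not fall with the deletion. The study reported lower Lama4 by quantitative PCR in eWAT of chow-fed Lama4 AKO mice, which the chow values here do not show. The reason was not tested, and these values do not check the genotype labels. All 10 adipocyte markers were in the table, with a summed level of at least 9003 CPM in each library. Of 9 markers of epididymal epithelium, 4 were in the table, and their sum reached 24.8 CPM in 1 chow-fed Lama4 fl/fl library.

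The 24 libraries include 5 that may not belong to the study's own analysis. The study removed outlier libraries by principal component analysis without naming them in its text, and an earlier analysis of these data inferred that they were the control replicates 3, 4 and 6 on HFD and 3 on chow, together with replicate 5 of the Lama4 AKO mice on chow. The first component of all genes held 45.8% of the variance. The 3 HFD-fed libraries lay at -9.88 to -76.1 on it, against 48.2 to 73.5 for the other HFD-fed Lama4 fl/fl libraries, and the 2 chow-fed libraries lay at 46.8 and 22.1, the highest values of their groups. Leaving them out therefore removes libraries that lay toward the other diet, which by its construction widens the difference between diets. All 24 libraries were used as the main set, and the tests of the members and the counts of the gene lists are given for the remaining 19 as well.

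Igf2 encodes insulin-like growth factor 2, a growth factor of the embryo that signals through the IGF1 and insulin receptors. In chow-fed Lama4 fl/fl mice its level ranged from 3.45 to 15.2 CPM with a median of 5.04, and in chow-fed Lama4 AKO mice from 3.75 to 8.03 with a median of 6.26. On HFD the medians were 4.14 (range, 1.26 to 10.5) for controls and 2.90 (2.62 to 6.93) for Lama4 AKO mice. The 4 ranges overlapped, and a single chow-fed Lama4 fl/fl mouse, replicate 1, held the highest value.

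H19 is the noncoding partner of Igf2 at the shared control region, where they are read from opposite parental copies. Its level was 0.990 to 3.12 CPM (median, 2.48) in chow-fed Lama4 fl/fl mice and 0.197 to 2.90 (median, 1.48) in chow-fed Lama4 AKO mice. On HFD it was 0.742 to 7.55 (median, 3.61) in Lama4 fl/fl and 2.63 to 12.9 (median, 4.53) in Lama4 AKO mice. The HFD-fed Lama4 AKO mice thus had the highest median, and the lowest of them lay below the highest chow-fed Lama4 AKO mouse.

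Mest encodes an enzyme of the α/β-hydrolase family found in the endoplasmic reticulum. It was the most abundant member by CPM, above 97.0% of all genes tested by its median. On chow its levels were 236 to 546 CPM (median, 334) in controls and 231 to 657 (median, 466) in Lama4 AKO mice. On HFD they were 106 to 683 (median, 308) in controls and 136 to 447 (median, 222) in Lama4 AKO mice. The HFD-fed Lama4 fl/fl mice spanned the range of all 24, with 108, 106 and 202 CPM in the 3 mice kept and 415, 683 and 619 in the 3 mice inferred as set aside.

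Peg3 encodes a zinc finger protein that is studied in growth and in the regulation of fat mass. Its levels were 6.58 to 215 CPM (median, 17.8) in chow-fed Lama4 fl/fl and 10.3 to 51.1 (median, 33.3) in chow-fed Lama4 AKO mice. In HFD-fed mice they were 6.26 to 102 (median, 25.4) in Lama4 fl/fl and 8.93 to 39.2 (median, 11.0) in Lama4 AKO. The value of 215 CPM belonged to chow-fed Lama4 fl/fl replicate 1 and stood above every other mouse of the 24.

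Plagl1, the zinc finger factor, had 9.45 to 63.6 CPM (median, 14.6) in controls on chow and 8.87 to 45.5 (median, 16.2) in Lama4 AKO mice on chow. On HFD it had 5.46 to 44.0 CPM (median, 10.9) in controls and 8.19 to 13.6 (median, 8.50) in Lama4 AKO mice. The HFD-fed Lama4 AKO mice were the most alike, with an SD of 0.28 log2 CPM against 0.87 to 1.26 in the other groups. The highest value again belonged to chow-fed Lama4 fl/fl replicate 1.

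Grb10 encodes an adaptor that binds the insulin and IGF1 receptors and dampens their signal. It varied least of the members, from 17.9 to 41.6 CPM over the 24 mice, a 2.32-fold range, whereas Peg3 spanned 34.4-fold and H19 65.6-fold. On chow its medians were 28.6 CPM in controls (21.9 to 41.6) and 32.5 in Lama4 AKO mice (23.7 to 40.4), and on HFD they were 27.4 (17.9 to 41.5) and 25.4 (18.7 to 30.5), so all ranges overlapped.

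Cdkn1c encodes p57, an inhibitor of cyclin-dependent kinases that holds cells out of the cell cycle. It ranged from 32.4 to 58.2 CPM (median, 46.1) in chow-fed Lama4 fl/fl and from 19.7 to 87.1 (median, 28.9) in chow-fed Lama4 AKO mice. In HFD-fed mice it ranged from 23.9 to 101 (median, 39.7) in Lama4 fl/fl and from 37.2 to 151 (median, 76.3) in Lama4 AKO. The HFD-fed Lama4 AKO mice had the highest median, and their range overlapped that of each other group.

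**Figure D1:**
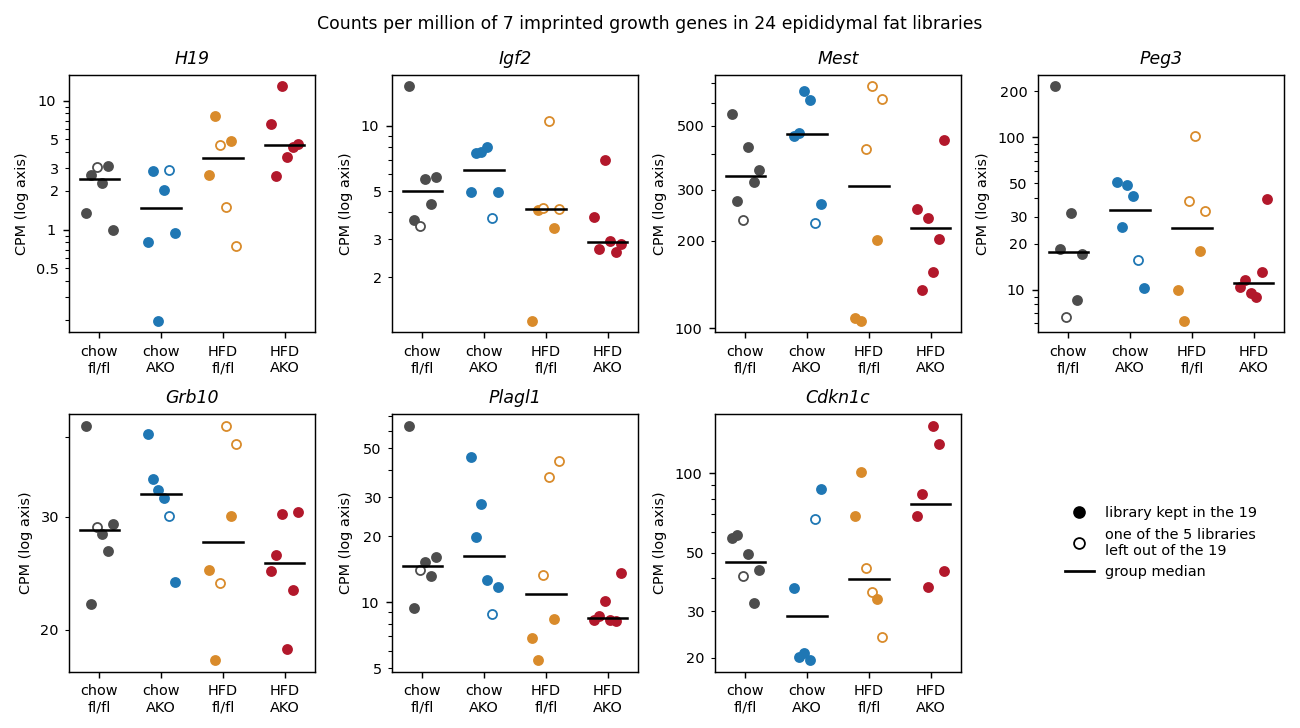
Level of each member in CPM (log axis) in the 24 libraries by group. Each point is 1 mouse, open points are the 5 libraries left out of the 19 and black lines are group medians. For Mest the 3 open points among HFD-fed Lama4 fl/fl mice lie above the 3 filled points.

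Ordered by mean log2 CPM, Igf2, Mest, Grb10 and Plagl1 shared one order from high to low, with Lama4 AKO mice on chow first, controls on chow next, then controls on HFD, and Lama4 AKO mice on HFD last. Peg3 differed in that controls came higher on HFD than on chow, at 4.53 and 4.49 log2 CPM. H19 had the reverse order of the 4 genes, and Cdkn1c was highest in HFD-fed Lama4 AKO mice (6.23 ± 0.82 log2 CPM) and lowest in chow-fed Lama4 AKO mice (5.13 ± 0.95, SD, n = 6 each). For none of the 7 genes did neighbours in the order differ by more than the larger of their 2 SDs, and the ranges overlapped in all 4 comparisons of 2 groups. Over all genes, ranges did not overlap for 0.213% between diets in Lama4 fl/fl mice, 6.86% between diets in Lama4 AKO mice, 0.26% between genotypes on chow and 0.533% between genotypes on HFD.

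The diet comparison in Lama4 fl/fl mice asked what HFD changes in control eWAT. No member was called by edgeR with 24 libraries, where a call needed a 1.5-fold change, a nominal p no higher than 0.001 and, in the group with more, an average of 2 CPM or above. The same rule called 0.173% of all genes tested. None of the 7 had an unadjusted p under 0.05, against 9.01% of all genes, and neither limma-voom nor DESeq2 called one. The log2 fold changes of the members, HFD over chow, ran from -0.52 for Peg3 to 0.69 for H19, and Mest was at -0.0090 ± 0.41 (SE). With 19 libraries Mest was called, at -1.46 ± 0.37 (adjusted p = 0.0075, edgeR's quasi-likelihood test), and the rule then called 11.8% of all genes. It was also the one member called there by limma-voom, which called 12.4% of all genes. The 3 HFD-fed mice kept had 106 to 202 CPM and the 5 chow-fed mice 275 to 546. Plagl1 was at -1.75 ± 0.55 (adjusted p = 0.0226), which met an adjusted p of at most 0.05 together with the fold and level criteria, as did 22.9% of all genes. Peg3 was at -2.35 ± 0.89 and Igf2 at -1.24 ± 0.46, with adjusted p-values of 0.0547 and 0.0514. When control replicate 1 on chow alone was left out of the 24, the values of Peg3 and Plagl1 turned to 1.06 and 0.50.

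The diet comparison in Lama4 AKO mice asked the same in mice bred to lack Lama4 in adipocytes. Again edgeR called no member with 24 libraries, while 4.12% of all genes were. H19 was 3.71-fold higher in HFD-fed mice, with a log2 fold change of 1.89 ± 0.55 (SE), a nominal p of 0.0020 and an adjusted p of 0.0246. It therefore met the rule of an adjusted p of at most 0.05, as did 16.1% of all genes, and it was the only one of the 7 to do so. Of 24 fits that each left out 1 library, 21 kept H19 within that rule. The adjusted p was 0.0582 without chow-fed Lama4 AKO replicate 1, 0.0597 without replicate 3 of that group and 0.0620 without HFD-fed Lama4 AKO replicate 3. A two-sided exact permutation test of the log2 CPM of the 6 against 6 mice gave p = 0.0065 for H19, where the smallest p it can give is 0.0022. DESeq2 gave 1.86 with a nominal p of 0.00043 and called H19 with 8.75% of all genes, and limma-voom gave 2.25 with a nominal p of 0.0012 and did not.

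Of the other members in Lama4 AKO mice, Cdkn1c was 2.04-fold higher on HFD (log2 fold change, 1.03 ± 0.41; adjusted p = 0.0687), and limma-voom and DESeq2 gave adjusted p-values of 0.0463 and 0.0440. The exact permutation test gave p = 0.067 for Cdkn1c, and its log2 fold change was 0.79 to 1.38 when single libraries were left out. Mest was at -0.91 ± 0.41 (adjusted p = 0.105) and Plagl1 at -1.15 ± 0.53 (adjusted p = 0.107). Igf2 was at -0.75 ± 0.40, Peg3 at -1.06 ± 0.75 and Grb10 at -0.34 ± 0.19, each with an adjusted p of at least 0.164. By edgeR 4 of the 7 had an unadjusted p under 0.05, against 39.8% of all genes. The median of the members was -0.75 and that of all genes tested -0.0031. With 19 libraries H19 was called, at 2.11 ± 0.53 (adjusted p = 0.0045), as were 15.7% of all genes, and limma-voom likewise called H19 alone with 15.9% of all genes. H19, Cdkn1c, Mest and Plagl1 then met the rule on adjusted p, against 27.7% of all genes.

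**Figure D2:**
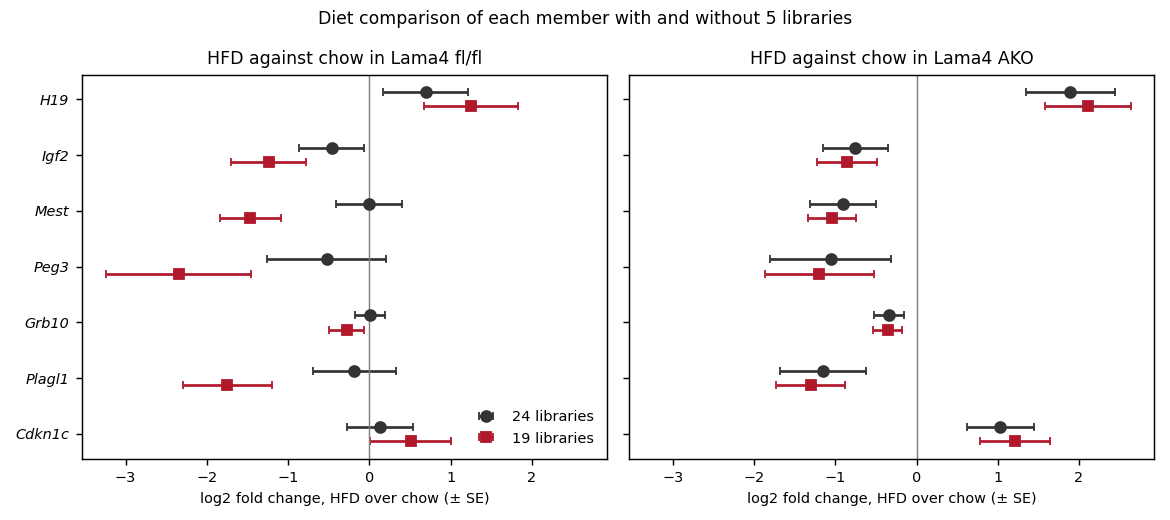
Log2 fold change of each member, HFD over chow, in Lama4 fl/fl mice (left) and Lama4 AKO mice (right). Points are estimates with bars of 1 SE, black circles from 24 libraries and red squares from 19. In Lama4 fl/fl mice Mest lies at -0.0090 with 24 libraries and at -1.46 with 19, and in Lama4 AKO mice both sets of values lie close together.

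Averaged over both genotypes, H19 was higher on HFD with a log2 fold change of 1.29 ± 0.38 (adjusted p = 0.0349). This met the rule on adjusted p, as did 6.02% of all genes, but not the nominal rule, by which edgeR called none of the 7 and 2.24% of all genes. H19 and Igf2 had an unadjusted p under 0.05 by edgeR, as did 35.5% of all genes. DESeq2 called H19 and 4.2% of all genes. With control replicate 6 on HFD left out, edgeR called H19 as well. With 19 libraries the nominal rule called H19 at 1.68 ± 0.39, Mest at -1.25 ± 0.24 and Plagl1 at -1.53 ± 0.35, and 21.4% of all genes, while limma-voom called H19 and Mest and 21.7% of all genes. Igf2, Peg3 and Cdkn1c then also met the rule on adjusted p, at -1.04 ± 0.30, -1.77 ± 0.56 and 0.86 ± 0.33, and 29.9% of all genes did. Grb10, at -0.32 ± 0.14, had an adjusted p of 0.0643.

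The genotype comparisons asked what loss of adipocyte Lama4 changes under each diet. On chow edgeR called no member and 0.113% of all genes. The log2 fold changes, Lama4 AKO over Lama4 fl/fl, ran from -0.62 ± 0.73 for Peg3 to 0.33 ± 0.41 for Mest, and the lowest nominal p was 0.336, whereas 5.85% of all genes had one under 0.05. On HFD edgeR called no member either, and 0.173% of all genes. Here Peg3 was at -1.16 ± 0.75, Plagl1 at -1.01 ± 0.53, Cdkn1c at 0.74 ± 0.41 and H19 at 0.67 ± 0.51, with adjusted p-values of 0.359 to 0.513. Again none had an unadjusted p under 0.05 by edgeR, against 14.8% of all genes. DESeq2 gave Plagl1 a nominal p of 0.0426 on HFD (adjusted p = 0.278). Neither limma-voom nor DESeq2 called a member in either genotype comparison. With 19 libraries Igf2, Mest, Peg3, Grb10 and Plagl1 turned from lower to higher in Lama4 AKO mice on HFD. Peg3 moved from -1.16 ± 0.75 to 0.44 ± 0.81 and Mest from -0.57 ± 0.41 to 0.79 ± 0.35, with adjusted p-values of 0.916 and 0.406 in the 19. No member was called with 19 libraries on chow or on HFD, where 0.209% and 0.565% of all genes were.

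The interaction, the diet effect in Lama4 AKO mice minus that in Lama4 fl/fl mice, tested whether the diet effect depended on genotype. No member was called in it by edgeR, limma-voom or DESeq2, while edgeR called 0.386% of all genes. The largest values by edgeR were 1.20 ± 0.75 for H19, -0.97 ± 0.73 for Plagl1, -0.90 ± 0.58 for Mest and 0.90 ± 0.57 for Cdkn1c. The lowest nominal p by edgeR was 0.121, whereas 15.6% of all genes had one under 0.05. By limma-voom H19 was at 1.82 with a nominal p of 0.0359 and an adjusted p of 0.301. With 19 libraries 4 of the 7 changed sign, Mest was at 0.42 ± 0.46, and no member was called, as against 0.68% of all genes. The difference between the 2 diet comparisons, with H19 past the adjusted threshold only in Lama4 AKO mice, thus did not pass its own test.

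The members were next compared with each other across mice, after subtracting the mean log2 CPM of each group so that diet and genotype did not enter. Of 21 pairs, the 10 pairs among Igf2, Mest, Peg3, Grb10 and Plagl1 had Pearson correlations of 0.54 to 0.84, and all 10 had an adjusted permutation p of at most 0.0357 (n = 24, adjusted over the 21 pairs). Over all pairs of genes tested, 12.4% had a correlation of at least 0.5 and 3.83% of at least 0.7. The first component of all genes after subtracting group means held 41.2% of the variance. Plagl1, Mest, Peg3, Grb10 and Igf2 had r of -0.92, -0.88, -0.88, -0.74 and -0.71 with it, and H19 and Cdkn1c had 0.55 and 0.48. Whether these members vary together beyond this variation shared by many genes was not tested. Grb10 and Plagl1 were closest (r = 0.84, rho = 0.77; permutation p = 2e-05 and 0.00018), followed by Peg3 and Plagl1 (r = 0.80, rho = 0.75; permutation p = 6e-05 and 0.00031) and by Mest and Peg3 (r = 0.79, rho = 0.84; permutation p = 2e-05 for both). Leaving out the 2 mice farthest from the median of the first gene of each pair gave 0.78, 0.67 and 0.76. Within single groups Mest and Peg3 had r of 0.90, 0.88, 0.93 and 0.77. The pairs of Igf2 with Peg3, Grb10 and Plagl1 rested more on chow-fed Lama4 fl/fl replicate 1 and HFD-fed Lama4 fl/fl replicate 4, without which r was 0.35, 0.28 and 0.36 in place of 0.65, 0.54 and 0.61.

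H19 and Igf2, the 2 neighbours that share a control region, did not vary together or against each other detectably (r = -0.11, rho = -0.067; permutation p = 0.648 and 0.766), and r was 0.097 in the 19 libraries. By group their r was -0.67 and -0.20 on chow and -0.22 and 0.93 on HFD, in Lama4 fl/fl and in Lama4 AKO mice, each over 6 mice. H19 varied against Plagl1 (r = -0.61, rho = -0.56; permutation p = 0.0055 and 0.0138, adjusted 0.0106 and 0.0263), and r was -0.52 without the 2 mice farthest from the H19 median and -0.45 in the 19 libraries. By group that r was -0.55 and -0.58 on chow and -0.88 and 0.21 on HFD, in Lama4 fl/fl and in Lama4 AKO mice, so the direction did not hold in HFD-fed Lama4 AKO mice. Cdkn1c varied against Mest (r = -0.68, rho = -0.64; permutation p = 0.00069 and 0.0025, adjusted 0.0020 and 0.0066) and against Grb10 (r = -0.65, rho = -0.66; permutation p = 0.00073 and 0.0014, adjusted 0.0020 and 0.0047), at -0.61 and -0.60 without the 2 farthest mice. In chow-fed Lama4 fl/fl mice alone Cdkn1c and Mest had r = 0.38, against -0.92, -0.82 and -0.67 in the other groups, each over 6 mice.

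**Figure D3:**
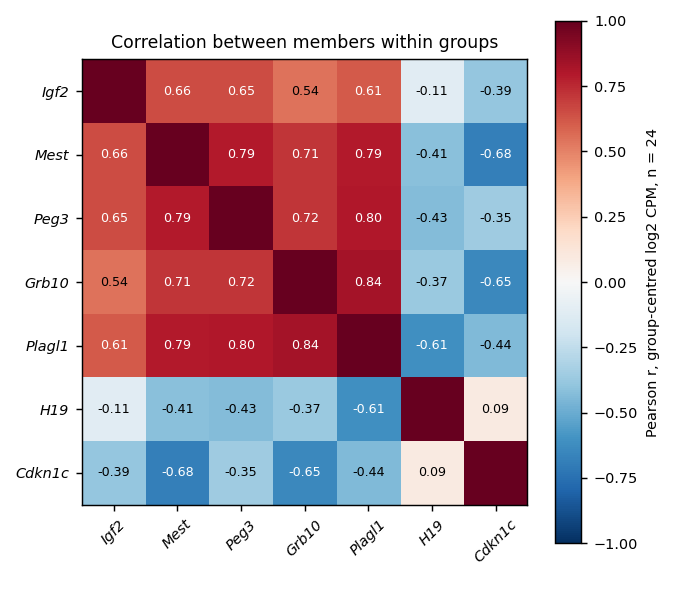
Pearson correlation between members over 24 libraries after subtracting group means from log2 CPM, from -1 (blue) to 1 (red). The 5 genes Igf2, Mest, Peg3, Grb10 and Plagl1 form a block of 0.54 to 0.84. The values of H19 and Cdkn1c with each of them are below 0, at -0.11 to -0.68. Of these, 1 of 5 pairs of H19 and 2 of 5 pairs of Cdkn1c had an adjusted permutation p of at most 0.05.

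By the same measure, the genes most like each member were named, as a description over the 24 mice. Mest was closest to Msrb3 (r = 0.96), to Cdh5 (0.95), the endothelial cadherin, and to Sox17 (0.95), an endothelial transcription factor. Igf2 was closest to Lmod1 (0.85) and Myh11 (0.84), proteins of smooth muscle, and to Map3k4 (0.82). Peg3 was closest to Dst (0.94), Pmepa1 (0.93) and Pdzd2 (0.93), Plagl1 to Cachd1 (0.97), Ppp2r1b (0.96) and Slc1a3 (0.96), and Grb10 to Nkd1, Htra1 and Bche (0.91 each). H19 was closest to Fxyd6 (0.84), Mmp23 (0.84) and Tmem119 (0.83), and Cdkn1c to Procr (0.85), 9130230L23Rik (0.84) and Slc40a1 (0.82). Plagl1 and Mest had 864 and 706 of the other 15019 genes at r of at least 0.8, whereas H19 and Cdkn1c had 7 each. No member was among the 3 genes nearest to another.

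The summed RNA of markers of several cell types varied along with several members. In bulk tissue, fewer cells of a type and less RNA per cell cannot be told apart. Each sum is of CPM, so it is weighted toward the most abundant markers of its list. Among adipocyte markers Fabp4 averaged 15793 CPM and the next, Adipoq, 2405 CPM. Among macrophage markers Lyz2 and Gpnmb averaged 3992 and 2538 CPM and the next, Cd68, 751 CPM. Whether the relations below hold for the other markers of a list was not tested. The 10 adipocyte markers, all in the table, summed on chow to a median of 32590 CPM in controls (19297 to 48075) and 30322 in Lama4 AKO mice (15718 to 38672), and on HFD to 19431 (9003 to 46102) and 10766 (9186 to 25232). The 9 macrophage markers, all in the table, summed on chow to medians of 8137 (1508 to 12632) and 4463 (2226 to 11510), and on HFD to 9096 (2434 to 17080) and 13864 (8410 to 17917). The median adipocyte sum was thus lowest and the median macrophage sum highest in Lama4 AKO mice on HFD, with ranges that overlapped. The 8 endothelial markers summed to medians of 587 and 791 CPM on chow and 518 and 420 on HFD.

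Within groups, Mest followed the adipocyte sum (r = 0.93, rho = 0.92; permutation p = 1e-05 for both, adjusted 0.00011 and 0.00012 over 84 relations; n = 24), and r was 0.90 both without the 2 mice farthest from the median of that sum and in the 19 libraries. It also followed the endothelial sum (r = 0.91, rho = 0.90; permutation p = 1e-05 and 2e-05). Whether the adipocyte and endothelial relations of Mest are separate was not tested. The smallest p that these permutations can give is 1e-05. Plagl1 ran against the macrophage sum (r = -0.95, rho = -0.93; permutation p = 1e-05 for both), at -0.93 without the 2 farthest mice. Peg3 also ran against the macrophage sum (r = -0.89, rho = -0.84; permutation p = 2e-05 for both), as did Grb10 (r = -0.80, rho = -0.78; permutation p = 4e-05 and 0.00016), at -0.80 and -0.72 without the 2 farthest mice. Igf2 followed the endothelial sum at r = 0.77 (rho = 0.71; permutation p = 8e-05 and 0.00011), and at 0.68 without the 2 farthest mice. None of these members varied with a single cell type only. Whether their relations to the sums go beyond the variation shared by many genes was not tested. Plagl1, for one, had 1172 of the other 15019 genes at r of -0.8 or below and 864 at 0.8 or above. Plagl1 had r = 0.85 with the adipocyte and the smooth muscle sum and 0.80 with the endothelial sum. Mest had 0.87 with the smooth muscle and -0.85 with the macrophage sum. Peg3 and Grb10 had 0.80 and 0.74 with the adipocyte sum, and Igf2 had -0.75 with the macrophage sum. Cdkn1c ran against the adipocyte, endothelial and smooth muscle sums at r = -0.64, -0.63 and -0.67 (rho = -0.59, -0.62 and -0.68; permutation p of r = 0.0027, 0.0032 and 0.0021), and at -0.65, -0.57 and -0.68 without the 2 farthest mice. H19 followed the sum of 10 markers of progenitors and fibroblasts (r = 0.56, rho = 0.57; permutation p = 0.0161 and 0.0102, adjusted 0.0288 and 0.0209), with r = 0.51 without the 2 farthest mice and 0.40 in the 19 libraries. It also followed the sum of 5 proliferation markers (r = 0.52, rho = 0.63; permutation p = 0.0059 and 0.00068, adjusted 0.0118 and 0.0023), with 0.64 and 0.43 in the same order. With the macrophage sum H19 had r = 0.55 and rho = 0.43 (permutation p = 0.0132 and 0.0601, adjusted 0.0246 and 0.0918), with 0.54 and 0.38. H19 and the macrophage sum were both at their highest median in HFD-fed Lama4 AKO mice. The progenitor and fibroblast sum also had its highest median there, at 6853 CPM against 4800 to 5999 elsewhere. The proliferation sum went the other way, with its lowest median in that group, at 174 CPM against 188 to 223 elsewhere. The part of these cell types in the diet values of the members was not tested.

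**Figure D4:**
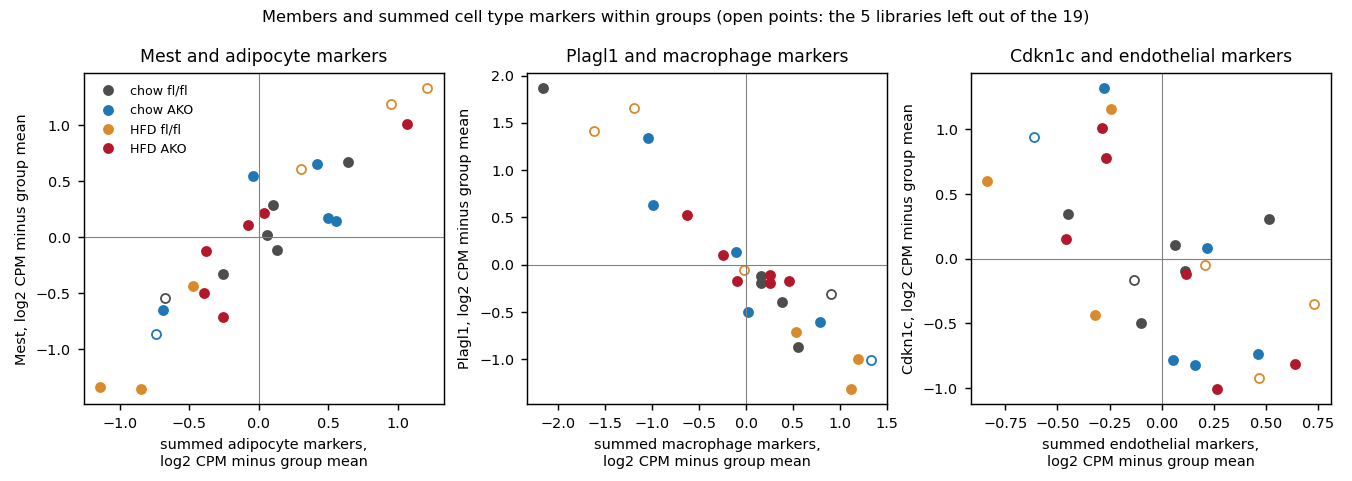
Mest against summed adipocyte markers, Plagl1 against summed macrophage markers and Cdkn1c against summed endothelial markers, each as log2 CPM minus its group mean, 1 point per mouse. Mest rises along the adipocyte sum (r = 0.93) and Plagl1 falls along the macrophage sum (r = -0.95), while Cdkn1c scatters more widely (r = -0.63).

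Other imprinted genes were read from a list of 53 names, of which 45 were in the table and 42 were tested. In the diet comparison of Lama4 fl/fl mice none of the 42 was called. In Lama4 AKO mice 2 were called lower, against 2.83% of all genes called lower, and none was called higher. These were Klf14, a regulator of fat metabolism (log2 fold change, -2.13 ± 0.55; adjusted p = 0.0193), and Copg2, a coat protein of Golgi vesicles (-1.04 ± 0.18; adjusted p = 0.0121), both of which lie in the Mest cluster. Their values in Lama4 fl/fl mice were 0.016 ± 0.52 and -0.30 ± 0.18. The count of Copg2 could hold reads of Mest, which it overlaps, so its calls may not be independent of Mest. By the rule on adjusted p, Meg3, a noncoding RNA (0.65 ± 0.22), Asb4 (1.23 ± 0.38) and Rasgrf1 (0.86 ± 0.30) were higher and Snrpn (-1.20 ± 0.41) and Ppp1r9a (-1.04 ± 0.34) lower, 5 genes beside the 2 called, where 16.1% of all genes met that rule. The median of the 42 was -0.060 and that of all genes -0.0031. The 3 most abundant on the list by CPM, Dcn, Gnas and Cd81, were at 0.11, 0.21 and -0.063 with adjusted p-values of at least 0.509. Averaged over genotypes, Copg2 was the one gene of the list that was called, at -0.67 ± 0.13 (adjusted p = 0.0124). With 19 libraries 3 of the 42 were called higher and 4 lower in Lama4 AKO mice, and none higher and 2 lower (Ube3a and Impact) in Lama4 fl/fl mice, against 15.7% and 11.8% of all genes called in either direction.

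**Figure D5:**
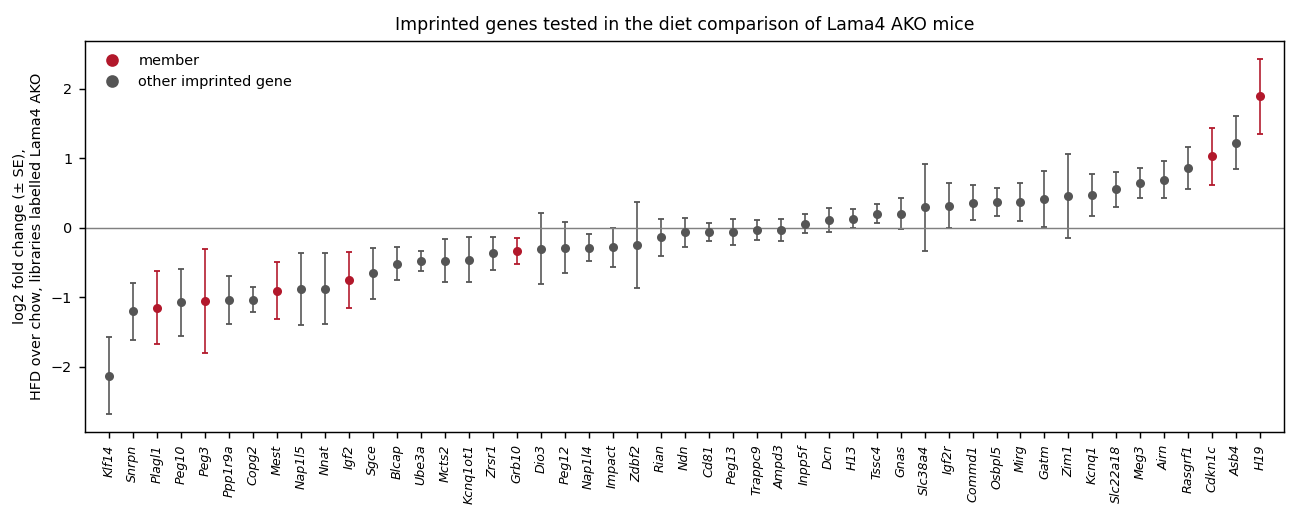
Log2 fold change with bars of 1 SE, HFD over chow, in Lama4 AKO mice, for the 7 members (red) and 42 other imprinted genes (grey) in order of their value. H19 is the highest at 1.89 and Klf14 the lowest at -2.13, and the members lie on both sides of 0.

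Of 25 listed neighbours of the members, 15 were tested. Klf14 and Copg2, the latter with a count that could hold Mest reads, were the 2 called in Lama4 AKO mice, where 4.12% of all genes were. Cep41 and Phactr2, neighbours of Mest and Plagl1, met the rule on adjusted p at -0.87 ± 0.24 and -0.85 ± 0.24, as did 16.1% of all genes. No tested neighbour of H19, Igf2 or Cdkn1c met either rule in the diet comparisons of 24 libraries. Kcnq1ot1, the noncoding RNA of the control region next to Cdkn1c, was at -0.46 ± 0.33 (adjusted p = 0.293), Nap1l4 at -0.28 ± 0.19 and Lsp1 at -0.27 ± 0.14. The median of the 15 was -0.27. With 19 libraries 4 were called lower in Lama4 AKO mice and 3 (Cep41, Phactr2 and Ltv1) in Lama4 fl/fl mice, against 15.7% and 11.8% of all genes called in either direction.

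The receptors, binding proteins and downstream partners of the insulin-like growth factors, with which Igf2 and Grb10 act, were given by 23 names, 21 of them tested. In Lama4 AKO mice 3 of the 21 were called, against 4.12% of all genes. Pik3r1, the regulatory subunit of PI3-kinase, was lower on HFD (-1.72 ± 0.35; adjusted p = 0.0124), as was the binding protein Igfbp5 (-1.67 ± 0.43; adjusted p = 0.0190), and Igfbp7 was higher (1.04 ± 0.27; adjusted p = 0.0205). Irs1 (-1.05 ± 0.36) and Igfbp2 (-2.06 ± 0.61) lower and Akt1 (0.70 ± 0.21) higher were added by the rule on adjusted p, which 16.1% of all genes met. The receptors Igf1r, Insr and Igf2r, of which Igf2r clears IGF2 and is itself imprinted, were at -0.45 ± 0.24, -0.55 ± 0.22 and 0.32 ± 0.32, with adjusted p-values of 0.158, 0.0752 and 0.466. Igf1, the most abundant on the list, was at 0.33 ± 0.20 (adjusted p = 0.211), and Igfbp4 was at -0.18 ± 0.17 (adjusted p = 0.430). Averaged over genotypes Pik3r1 (-1.08 ± 0.24) and Igfbp2 (-1.62 ± 0.42) were called lower. No gene of the list was called in Lama4 fl/fl mice with 24 libraries. The median of the list was -0.18 in Lama4 AKO mice. With 19 libraries, where 20 were tested, 3 were called higher and 2 lower in Lama4 AKO mice, and 1 higher (Rptor) and 1 lower (Pik3r1) in Lama4 fl/fl mice, against 15.7% and 11.8% of all genes.

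The 6 other inhibitors of the Cip/Kip and Ink4 families, relatives of Cdkn1c in function, were all tested. In Lama4 AKO mice Cdkn1a (p21) and Cdkn2c (p18) were called lower on HFD, at -1.04 ± 0.24 (adjusted p = 0.0153) and -1.48 ± 0.37 (adjusted p = 0.0180), and Cdkn1b (p27) met the rule on adjusted p at 0.88 ± 0.27 (adjusted p = 0.0296). The shares of all genes were 2.83% called lower and 16.1% by the rule on adjusted p. Cdkn1c, at 1.03 ± 0.41, did not meet it. The median of the 6 was -0.40. None of the 6 was called in Lama4 fl/fl mice with 24 or 19 libraries, and with 19 Cdkn1b joined the calls in Lama4 AKO mice, where 15.7% of all genes were called.

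Finally, 6 genes often named together with Mest as markers of fat that varies between alike mice or of fat expansion were read. In Lama4 AKO mice Npr3 (-1.56 ± 0.37), Bmp3 (-1.27 ± 0.27) and the adipokine gene Lep (-2.10 ± 0.51) were called lower on HFD, and Sfrp5 (-1.71 ± 0.61) and Cav1 (-1.37 ± 0.37) met the rule on adjusted p, beside 2.83% of all genes called lower and 16.1% within the rule on adjusted p. The sixth, Nnat, which is itself imprinted, was at -0.87 ± 0.52 (adjusted p = 0.203). The median of the 6 was -1.47, beside -0.91 for Mest, and in Lama4 fl/fl mice it was 0.091 with 24 libraries and -1.15 with 19. With 19 libraries 4 of the 6 were called lower in Lama4 AKO mice and none in Lama4 fl/fl mice, against 15.7% and 11.8% of all genes called in either direction. Lep is also one of the 10 adipocyte markers, and Cav1 is abundant in endothelial cells as well as in adipocytes.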

How the data were processed

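The members and all gene lists were chosen with earlier results of these data known. Per the labels, the libraries are QuantSeq 3′ libraries of eWAT RNA, 1 per mouse. The authors mapped and counted reads against GRCm38 in Bluebee's pipeline for QuantSeq, with Rsubread also named for the count matrices, and deposited raw counts per gene. A second table, deposited as counts scaled by size factors (a normalized signal), was used for symbols and positions only. The submitters' processing notes name R 4.0.3 and DESeq2 1.30. The aligner's settings and the counting strand are not given in the sources used here. Genes with fewer than 72 counts in total are absent from the table. Symbols missing from the table were taken from GENCODE by gene ID.

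Counts were fitted in R 4.3.3 with edgeR 4.0.16 (TMM factors, quasi-likelihood test, 1 coefficient per group, all 24 libraries), after a filter of 1 CPM or more in 3 or more mice. P-values were adjusted by Benjamini and Hochberg over the 15020 genes tested. The log2 CPM of single libraries used a prior count of 2. The SE of a log2 fold change is the one implied by its F statistic. Single members were also compared by two-sided exact permutation tests. Correlations of log2 CPM minus group means were tested with 100000 permutations within groups in Python 3.11.15 and NumPy 2.4.6. Alternatives were limma-voom (limma 3.58.1), DESeq2 1.42.0, other scalings, no filter, fits limited to 2 groups, a block for replicate number, other thresholds, each library left out and the 19 libraries. After seeing the data, limma-voom and the adjusted p rule were added for the 19 libraries. The fits were tested on simulated counts. Pairs of libraries within a group, 60 in all, had correlations of 0.859 to 0.984 and differed by at least 5.22 times counting error (chi-square per degree of freedom), so none was taken as a duplicate. P-values cover the spread between single mice. Named genes were the members, the 3 genes most correlated with each, genes of the lists that were called, and the 3 most abundant of each list. Other genes of the lists were named after their values were seen.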

Additional observations from a re-analysis of the deposited data

Results flagged for a closer look

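In 3 of 28 sets of 6 mice (7 members in 4 groups), 1 mouse stood apart from the other 5 of its group by Dixon's test on log2 CPM. Chance flags about 1 in 20 such sets. Plagl1 was 63.6 CPM in chow-fed Lama4 fl/fl replicate 1, and the next highest of that group was 16.0. Igf2 was 15.2 CPM in the same mouse, and the next highest was 5.79. Peg3 was 39.2 CPM in HFD-fed Lama4 AKO replicate 6, and the next highest was 13.01. The first of these mice had the lowest first component of all 24 libraries (-91.8) and the lowest macrophage sum (1508 CPM), and the other had the lowest first component of its group (0.85).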

How the results depend on the processing

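With 24 libraries no member was called in any of the 6 comparisons, and this held for limma-voom, other scalings, no filter, fits limited to 2 groups and the replicate block. Same-numbered mice of 2 groups had correlations of -0.48 to 0.71, over 0.1 in 2 or 3 of 6 pairs per comparison, and 1 to 3 mice of 6 correlated best with their own number. With 6 pairs per comparison these values cannot settle whether the numbers mark a pairing. With the replicate block the calls among all genes went from 26 to 19, 619 to 457, 17 to 10, 26 to 19, 58 to 32 and 337 to 252 in the order diet in Lama4 fl/fl, diet in Lama4 AKO, genotype on chow, genotype on HFD, interaction and averaged diet. Leaving out 1 mouse gave 14 to 63, 299 to 1169, 4 to 65, 13 to 91, 29 to 188 and 204 to 691 calls.

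Members were called by other settings as follows. For diet in Lama4 fl/fl mice 1 was called with 19 libraries, 1 by limma-voom with 19, and 2 with 19 by adjusted p. For diet in Lama4 AKO mice these counts were 1, 1 and 4, with 1 by DESeq2 and 1 by adjusted p in 24. For averaged diet they were 3, 2 and 6, with 1 by DESeq2, 1 by adjusted p in 24, and 0 to 1 when leaving out 1 mouse, the 1 without HFD-fed Lama4 fl/fl replicate 6.

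Some log2 fold changes of members, all without a call in 24 libraries, turned in sign. For diet in Lama4 fl/fl mice, Mest was 0.0083 by DESeq2, 0.0082 with its size factors in edgeR, 0.028 with library totals, 0.0067 without a filter and 0.019 with 2 groups. Peg3 was 0.073 by limma-voom, 0.052 with the replicate block and 0.036 as the log2 CPM difference of the exact permutation test. Grb10 was -0.28 with 19 libraries, -0.028 by limma-voom, -0.27 by limma-voom with 19, and -0.030 in log2 CPM, and Cdkn1c was -0.011 and -0.012 by limma-voom and log2 CPM. For genotype on chow, Igf2 was 0.20 by limma-voom, 0.033 with library totals, 0.15 by limma-voom with 19 and 0.097 in log2 CPM. Peg3 was 0.40, 0.022 with the replicate block, 0.17 and 0.29, and Plagl1 was 0.16, 0.011 with library totals, 0.083 with the replicate block, 0.25, 0.049 and, with 19 libraries, 0.013. For genotype on HFD with 19 libraries, edgeR and limma-voom gave 0.33 and 0.42 for Igf2, 0.79 and 0.75 for Mest, 0.44 and 0.33 for Peg3, 0.075 and 0.090 for Grb10, and 0.46 and 0.46 for Plagl1. For the interaction they gave 0.39 and 0.26 for Igf2, 0.42 and 0.41 for Mest, 1.15 and 0.16 for Peg3, and 0.45 and 0.21 for Plagl1.

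Leaving out 1 mouse, ranges that crossed 0 were, for diet in Lama4 fl/fl, -0.30 to 0.18 for Mest, -1.24 to 1.06 for Peg3, -0.12 to 0.13 for Grb10, -0.62 to 0.50 for Plagl1 and -0.18 to 0.28 for Cdkn1c. For genotype on chow they were -0.16 to 0.43 for Igf2, -0.85 to 0.96 for Peg3 and -0.42 to 0.64 for Plagl1, for genotype on HFD -0.63 to 0.10 for Igf2, and for the interaction -0.75 to 0.14 for Igf2 and -2.11 to 0.18 for Peg3. Chow-fed Lama4 fl/fl replicate 1 set the high end for Peg3 and Plagl1 in diet and in genotype on chow, and HFD-fed Lama4 fl/fl replicate 4 set it on HFD and in the interaction. The cause of these turns was not tested. H19, with as few as 3 counts in a library, is the member most limited by depth.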
